A study of Homo sapiens with 3 samples.

Results

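The genes described here are 54 genes of mitosis: its cyclins and kinases, the spindle checkpoint, the kinetochore, the spindle motors and the chromosome structure factors. They were taken by name from a table of 26485 gene entries, and 54 of 54 names were found once each. Each was a protein-coding gene at the same place in GENCODE release 29. The RNA came from CAMA1, an established line of human breast cancer cells that the labels call estrogen receptor-positive and FGFR1-amplified, at a passage below 10. Cells were held for 48 h without estradiol in the medium, and every library shares that treatment, so no group with estradiol or with another treatment is compared here. Poly-A RNA of RIN 8 or above was sequenced in 3 libraries, described as biological replicates of 1 group. Nothing in the labels says whether the cultures were grown, harvested or sequenced together, so statistics between libraries measure only the spread of these 3, which may be technical.

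Mitosis separates the duplicated chromosomes. Cyclin B and CDK1 drive entry into it, Aurora and Polo-like kinases build the spindle, and kinetochores couple chromosomes to microtubules. The spindle checkpoint holds back the anaphase-promoting complex until every chromosome is attached, after which cyclin B and securin are destroyed. Transcripts of many of these genes are periodic: they are repressed in resting and G1 cells and peak in G2 and mitosis. In luminal breast cancer cells estrogen is known to drive entry into the cell cycle, and MKI67 and other members are widely used as markers of proliferation.

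The libraries summed to 26473939, 26592335 and 30745412 counts in replicates 1, 2 and 3. The markers fixed for luminal epithelium were all detected (8 of 8, meaning at least 10 counts in each library), with a median of 919 TPM. TPM is a count divided by gene length and scaled to the same total in every library. Of 3 basal markers 2 were detected, with a median of 0.682 TPM over the 3. None of 4 immune and none of 3 endothelial markers was detected, with 3, 3 and 2 counts for PTPRC and 2, 0 and 0 counts for CDH5 in replicates 1, 2 and 3. Of 5 fibroblast markers COL1A1 alone was detected (10.5 ± 0.270 TPM, SD, n = 3), while COL1A2, DCN and LUM had no counts, which allows up to 3 counts in each library. Errors of levels below are SD over the 3 libraries, and intervals drawn from counts cover counting error only.

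All 54 mitotic genes were transcribed, and nearly all were lowest in 1 and the same library. The 54 were detected in every library, with a median of 17.5 TPM against 25.8 TPM over 12813 detected protein-coding entries. Means ran from 3.36 TPM for NCAPH to 135 TPM for BUB3. The members held 0.199% of counts in replicate 1 (exact 95% interval 0.197 to 0.201%), 0.186% in replicate 2 (0.184 to 0.187%) and 0.145% in replicate 3 (0.144 to 0.147%). On CPM, counts scaled to library size with TMM factors and not divided by length, 52 of 54 members were lowest in replicate 3, whereas 39.8% of all 14453 genes tested were. CDC25B was lowest in replicate 1 and SPC25 in replicate 2, against 32.8% and 27.4% of all genes. In bulk RNA, fewer cells in G2 and mitosis and less mitotic RNA per cell cannot be told apart.

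**Figure D1:**
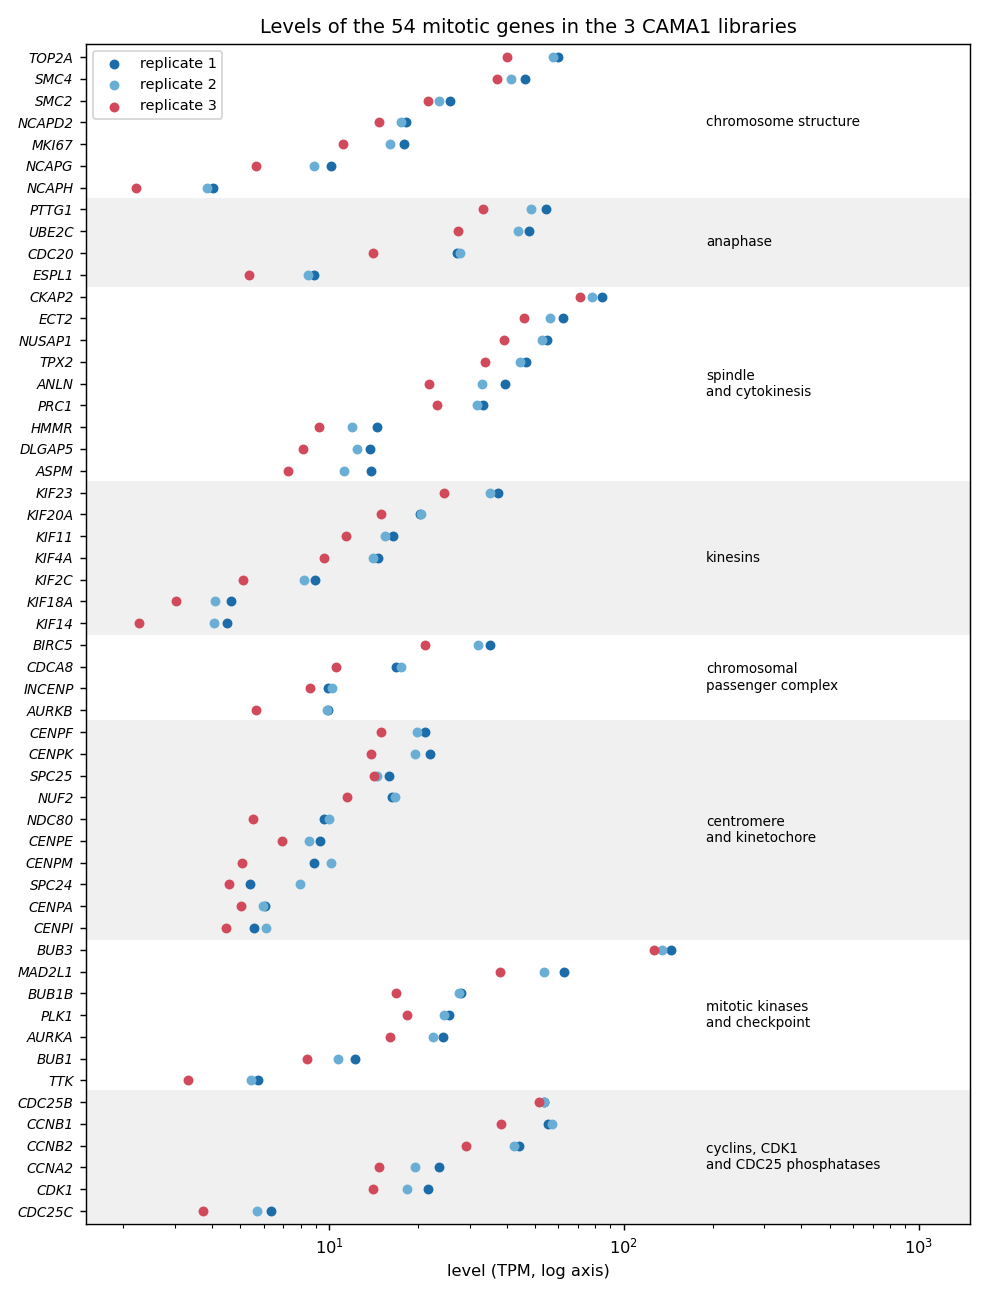
Level of each of the 54 mitotic genes in TPM (log axis), 1 point per library, ordered by mean within 8 roles. BUB3 stands highest at 135 TPM on average and NCAPH lowest at 3.36 TPM, and the replicate 3 point lies to the left of the other two for nearly every gene.

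The highest level was in replicate 1 for 42 members, in replicate 2 for 12 and in replicate 3 for 0, against 32.7%, 27.5% and 39.8% of all genes. The median log2 CPM difference was −0.54 between replicates 3 and 1 (a ratio of 0.687), −0.46 between replicates 3 and 2 (0.725), and −0.07 between replicates 2 and 1. Over all genes tested the same medians were 0.00, 0.00 and 0.00. Between replicates 3 and 1 the members ran from −0.92 (KIF14) to 0.00 (CDC25B). By median, replicates 1 and 2 were closer to each other for these genes than either was to replicate 3.

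In the test of each gene against Poisson sampling (edgeR, chi-square on 2 degrees of freedom, Benjamini-Hochberg over 14453 genes), 48 of 54 members varied between libraries, against 41.6% of all genes. The same 48 were called and lowest in replicate 3, against 18.7% of all genes. The 6 that were not called were CDC25B, SPC25, INCENP, SPC24, CENPA and CENPI. A stricter test against the trended negative binomial dispersion, which allows for the usual spread of genes at the same level, called 5 members (ANLN, ASPM, BUB1B, CDC20 and MKI67) against 1.31% of all genes. At an unadjusted p under 0.05 that test took 35 of 54 members, against 6.07% of all genes. All 35 were lowest in replicate 3, against 3.16% of all genes. The other 49 members did not pass the adjusted test one by one, and the counts over the list are a description.

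Pairwise exact binomial intervals of the count ratio rest on the same counts and the same counting error as the Poisson test. They give the size of each difference and are not separate evidence. Replicate 3 lay below replicate 1 with an interval excluding equality for 48 members and above it for 0, against 21.4% and 22.4% of all genes. Replicate 3 lay below replicate 2 for 49 members and above it for 0, against 19.7% and 19.8%. Both held for 46 members, against 14.9%. Replicate 2 lay below replicate 1 for 12 members and above it for 0, against 8.23% and 11%. The 12 were ANLN, ASPM, BUB3, CCNA2, CDK1, CKAP2, ECT2, HMMR, MAD2L1, MKI67, SMC2 and SMC4. The 3 comparisons share libraries and are not independent of one another.

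**Figure D2:**
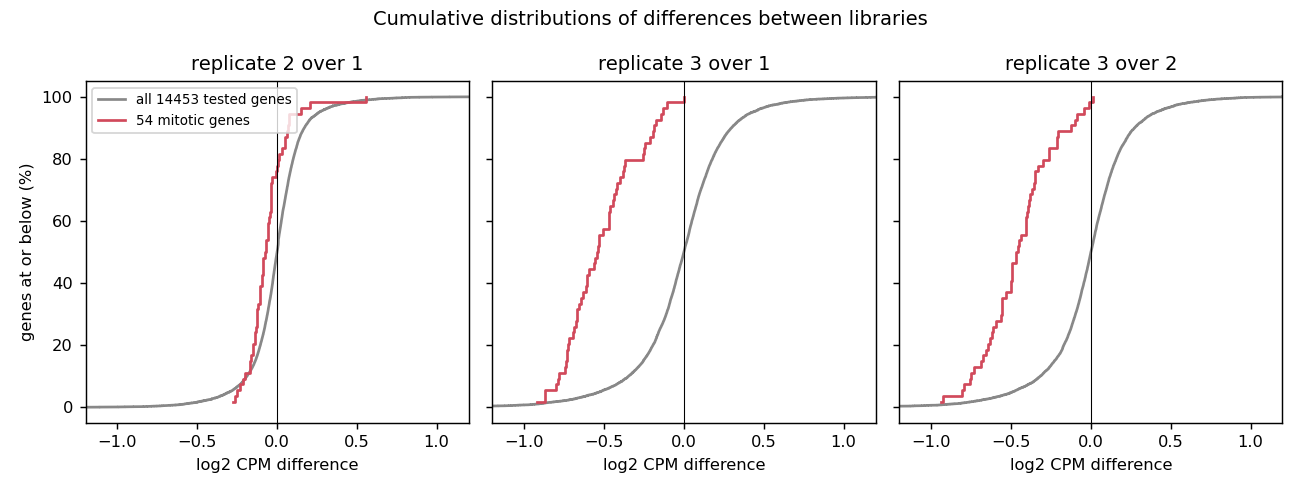
Cumulative share of genes (%) at or below each log2 CPM difference, for the 54 mitotic genes and all 14453 genes tested, in the 3 pairs of libraries. The mitotic genes lie to the left of all genes in both panels with replicate 3 (medians −0.54 and −0.46) and close to them between replicates 2 and 1 (−0.07).

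The promoters of many members carry a shared pair of sequence elements. The part of these elements in the low values of replicate 3 was not tested. The cell cycle genes homology region, or CHR, is the site through which MuvB complexes repress these genes in resting cells and activate them, with B-MYB and FOXM1, in G2. The CCAAT box is bound by NF-Y. RefSeq windows from 250 bases before to 50 bases after the start site (GRCh38.p14) matched 47 of 54 members, taking for each gene the start nearest the 5′ end in the deposited table. AURKA, BIRC5, BUB3, CENPM, TPX2, TTK and UBE2C had no entry. Both strands were searched for TTTGAA or TTCGAA (CHR), for CCAAT, and for the 8-letter E2F forms TTTCCCGC, TTTGGCGC, TTTCGCGC and TTTGCCGC. TTCGAA reads the same on both strands and was counted once, and matches of the different motifs can overlap.

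A CHR match stood in 33 of 47 member windows (70.2%), against 13.7% of the windows of 16193 genes chosen the same way. CCAAT stood in 34 of 47 (72.3%) against 36.3%. Both stood in 26 of 47 (55.3%) against 5.71%. An E2F form stood in 3 of 47, those of CDK1, CENPA and NUSAP1 (6.38% against 4.19%). In 24 members a CHR began within 60 bases before to 20 after the start, and 59 of 75 CCAAT matches began within the 120 bases before it. These are letter matches, not measured sites of binding.

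In many genes the bases just before one start are transcribed from another, so sequences are printed only where the 120 bases before the start overlap no exon of GENCODE release 29 or of the deposited table. That left 5 members, a choice made after the data were seen. They are given 5′ to 3′ with letter matches in capitals (TTTGAA or its reverse TTCAAA, and CCAAT or its reverse ATTGG). KIF14 had the lowest ratio of replicate 3 to replicate 1, MKI67 passed the negative binomial test, ESPL1 has the pair of elements side by side, and the printed bases of CDC25C and CDK1 hold no match.
KIF14 (chr1:200620752-200620871, minus strand): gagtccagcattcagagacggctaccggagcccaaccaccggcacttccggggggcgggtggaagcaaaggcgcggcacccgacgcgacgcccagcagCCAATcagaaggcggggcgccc
MKI67 (chr10:128126424-128126543, minus strand): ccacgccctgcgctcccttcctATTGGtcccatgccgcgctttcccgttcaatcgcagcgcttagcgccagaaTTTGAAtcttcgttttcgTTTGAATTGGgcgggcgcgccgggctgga
ESPL1 (chr12:53268179-53268298, plus strand): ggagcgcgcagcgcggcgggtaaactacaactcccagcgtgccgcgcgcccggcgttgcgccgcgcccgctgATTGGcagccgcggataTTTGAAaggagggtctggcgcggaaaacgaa
CDC25C (chr5:138338356-138338475, minus strand): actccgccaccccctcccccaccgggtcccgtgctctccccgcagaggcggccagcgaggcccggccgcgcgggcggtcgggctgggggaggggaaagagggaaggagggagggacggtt
CDK1 (chr10:60778211-60778330, plus strand): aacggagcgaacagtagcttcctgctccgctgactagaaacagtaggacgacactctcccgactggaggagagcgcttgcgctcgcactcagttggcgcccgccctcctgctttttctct

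In ESPL1 the CHR began 31 bases before the start, and the nearest upstream CCAAT, counted from first base to first base, lay 17 bases from it. MKI67 has a CHR at 47 and another at 29 bases before the start, the second overlapping a reverse CCAAT. Outside the printed bases, KIF14 has a CHR just after the start, and CDK1 has a CHR 161 and a CCAAT 150 bases before it. The median log2 CPM difference of replicates 3 and 1 was −0.54 for the 33 members with a CHR and −0.54 for the members with a window and no CHR. It was −0.54 with CCAAT and −0.45 without. With both a CHR and a CCAAT match it was −0.54, against −0.60 for the other members with a window. With 2 or more CCAAT matches it was −0.47, against −0.56 without. With an E2F form it was −0.43, against −0.54 without. For the 6 members with none of the motifs (CDC25B, CDC25C, CENPE, CENPI, CKAP2 and KIF2C) it was −0.31. Their values ran from −0.74 (KIF2C) and −0.69 (CDC25C) to 0.00 (CDC25B). Those 6 made up 12.8% of member windows, against 53.4% of all windows. CDC25B and CDC25C each have 4 RefSeq windows, and only that nearest the deposited 5′ end is counted here, so a match near another start would be missed. Of the 47 windows 33 start within 100 bases of the deposited 5′ end. The start used lies 1249 bases from it in CENPI, 628 in CKAP2, 384 in KIF20A and 377 in AURKB. The distance is 346 bases in SMC4, 219 in MKI67, 187 in NUSAP1 and 179 in CDC25B. For these and the other windows beyond 100 bases, the window may not be that of the start in use.

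**Figure D3:**
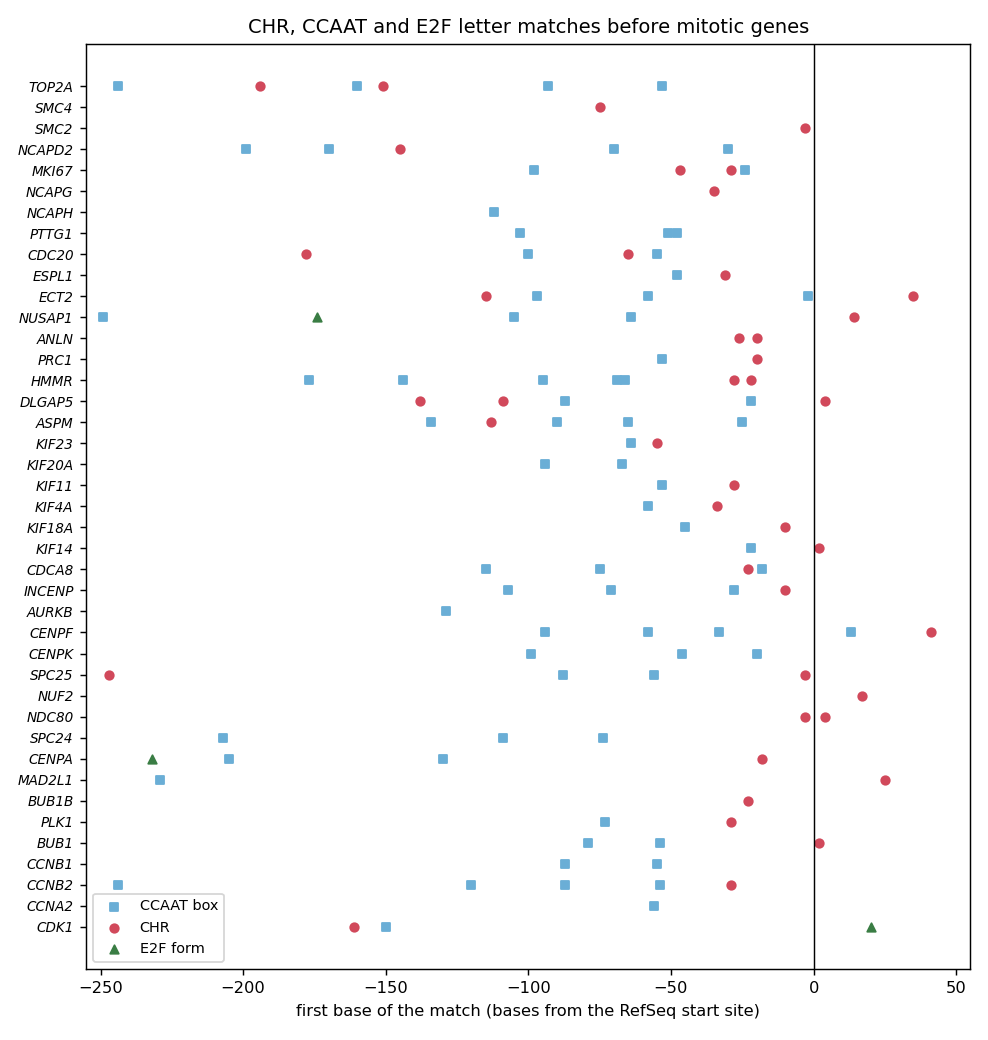
First base of each CHR, CCAAT and E2F letter match by distance from the RefSeq start site (bases), for the 41 members with any match. Most CCAAT matches (59 of 75) lie within 120 bases before the start, and 24 members have a CHR close to it.

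The engine of mitotic entry was expressed at moderate levels, with cyclin B1 above its kinase. CDC25B and CDC25C code for phosphatases that activate CDK1. CDC25B (chromosome 20, 3786772 to 3806121) had the highest mean TPM of this class. It stood at 53.7, 53.4 and 51.6 TPM in replicates 1, 2 and 3, the order used throughout. On CPM the values were 85.4, 86.1 and 85.5 CPM, a ratio of 1.0 times (95% interval 0.945 to 1.06) between replicates 3 and 1 (Poisson test, adjusted p = 0.968, edgeR). Its 3 libraries were level, with the smallest range of the 54 members and a coefficient of variation of 0.456%.

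CCNB1, cyclin B1 (chromosome 5, 69167010 to 69178243), stood at 55.4, 57.1 and 38.4 TPM, with replicate 3 low and the other libraries close together. It stood above CDC25B in replicates 1 and 2 and below it in replicate 3. Its CPM in replicate 3 stood at 0.722 times (95% interval 0.662 to 0.786) that in replicate 1 and 0.690 times (95% interval 0.634 to 0.751) that in replicate 2 (Poisson test, adjusted p = 7.33e-19, edgeR). CDC25C was the lowest of the class at 6.36, 5.69 and 3.74 TPM, again lowest in replicate 3 (162, 146 and 113 counts). CCNB2 (38.6 ± 8.10 TPM), CCNA2, which acts in S and G2 (19.3 ± 4.39 TPM), and CDK1 (18.1 ± 3.81 TPM) lay between them, with replicate 3 at 0.692, 0.654 and 0.677 times replicate 1. Of the 6 genes 5 were called and lowest in replicate 3, against 18.7% of all genes.

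The ratios of the cyclins to CDK1 varied little beside the difference in their levels. The TPM ratio of CCNA2 to CDK1 was 1.09, 1.06 and 1.05, and that of CCNB2 to CDK1 2.03, 2.30 and 2.08. The ratio of CCNB1 to CDK1 was 2.55, 3.10 and 2.72. CDC25B over CDC25C was highest in replicate 3, at 8.44, 9.39 and 13.8. With 3 libraries an exact sign-flip test of such ratios cannot give a p under 0.25, so none is tested here.

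Among mitotic kinases and checkpoint genes, BUB3 stood far above the rest. BUB3 (chromosome 10, 123154244 to 123165370) binds checkpoint kinases at kinetochores and reached 144, 134 and 127 TPM, rank 1355 of 19021 protein-coding entries. The difference between its libraries was small: replicate 3 stood at 0.913 times (95% interval 0.874 to 0.954) replicate 1 and 0.969 times (95% interval 0.926 to 1.01) replicate 2, the latter interval including equality. MAD2L1, the checkpoint protein that inhibits CDC20, followed at 62.7, 53.8 and 38.0 TPM, with replicate 3 at 0.632 times (95% interval 0.570 to 0.700) replicate 1 (Poisson test, adjusted p = 1.93e-17, edgeR). The checkpoint kinase gene TTK was lowest of the class at 5.75, 5.44 and 3.33 TPM (172, 164 and 118 counts).

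All 7 genes of this class were lowest in replicate 3 and called beyond Poisson sampling, against 18.7% of all genes. BUB1B, the BubR1 gene, stood at 28.0, 27.6 and 16.8 TPM: replicates 1 and 2 were nearly equal and replicate 3 stood at 0.625 times (95% interval 0.568 to 0.688) replicate 1 (negative binomial test, adjusted p = 0.0154, edgeR). PLK1 (22.8 ± 3.91 TPM), AURKA (21 ± 4.29 TPM) and BUB1 (10.4 ± 1.90 TPM) had replicate 3 at 0.748, 0.692 and 0.719 times replicate 1, and none of the 3 passed the negative binomial test. The ratio of BUB3 to BUB1B in TPM was 5.15, 4.87 and 7.52, highest in replicate 3.

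Centromere and kinetochore genes had the lowest median of the 8 roles, 8.32 TPM with the deposited lengths. CENPF, a large protein that joins kinetochores late in G2, had the highest mean with those lengths (chromosome 1, 214603189 to 214664571). It stood at 21.2, 19.9 and 15.0 TPM, and CENPK followed at 22, 19.6 and 13.9 TPM, above CENPF in replicate 1. CENPI had the lowest mean, at 5.55, 6.10 and 4.45 TPM (141, 156 and 134 counts). It was not called (Poisson test, adjusted p = 0.100, edgeR). Of the 10 genes 9 were lowest in replicate 3 and 6 were called, against 39.8% and 41.6% of all genes. CENPM, at 5.57, 6.44 and 3.32 CPM, had the largest range of all members, with replicate 3 at 0.516 times (95% interval 0.400 to 0.664) replicate 2.

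SPC24 and CENPA rested on few counts and were not called. SPC24 had only 35, 52 and 35 counts, and its ratio of replicate 3 to replicate 1 was 0.879 times (95% interval 0.534 to 1.45), while replicate 3 stood at 0.588 times (95% interval 0.372 to 0.920) replicate 2. CENPA, the centromeric histone H3, had 86, 85 and 84 counts and a ratio of 0.859 times (95% interval 0.628 to 1.17). That interval includes both equality and the members' median ratio of 0.687. CENPE, a kinesin of the kinetochore with far more counts (796, 734 and 700 counts), was at 0.773 times (95% interval 0.698 to 0.857).

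The NDC80 complex, which binds microtubules, is built of 4 subunits. The transcripts of 2 of the 4 were called, against 41.6% of all genes. NDC80 (9.62, 10.0 and 5.53 TPM) and NUF2 (16.3, 16.7 and 11.5 TPM) were low in replicate 3, at 0.599 times (95% interval 0.480 to 0.745) and 0.732 times (95% interval 0.620 to 0.863) replicate 1. SPC25 stood at 16, 14.5 and 14.2 TPM. On CPM it had 16, 14.6 and 14.8 CPM, lowest in replicate 2, and was not called (Poisson test, adjusted p = 0.519, edgeR). SPC25 also lies on an alternate contig, its counts are fractional, and with its exon length on chromosome 2 alone its level is 28.9 ± 1.89 TPM instead of 14.9 ± 0.966 TPM. With that length SPC25 stands above CENPF, so the order within the class depends on the length used.

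The chromosomal passenger complex places Aurora B at centromeres and later at the midzone. BIRC5, survivin, was its most abundant transcript at 35.1, 32.1 and 21.2 TPM, and replicate 3 stood at 0.629 times (95% interval 0.569 to 0.695) replicate 1 (Poisson test, adjusted p = 1.98e-20, edgeR). CDCA8, borealin, followed at 16.9, 17.5 and 10.6 TPM. AURKB had the lowest mean, at 9.94, 9.86 and 5.63 TPM (128, 128 and 86 counts). For AURKB replicates 1 and 2 were level and replicate 3 stood at 0.591 times (95% interval 0.444 to 0.782) replicate 1. INCENP, the scaffold, stood at 9.91, 10.3 and 8.61 TPM and was not called (Poisson test, adjusted p = 0.163, edgeR), with replicate 3 at 0.905 times (95% interval 0.788 to 1.04) replicate 1. BIRC5 exceeded AURKB in TPM 3.53, 3.25 and 3.76 times in the 3 libraries, and CDCA8 exceeded it 1.70, 1.78 and 1.87 times.

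All 7 kinesin genes were lowest in replicate 3 and called beyond Poisson sampling, against 18.7% of all genes. In these 7 genes replicate 3 stood at 0.525 to 0.771 times replicate 1. KIF23, a motor of the central spindle, was the most abundant at 37.4, 35.1 and 24.6 TPM (chromosome 15, 69414246 to 69448427), then KIF20A, which acts in cytokinesis, at 20.3, 20.5 and 15.0 TPM. KIF14 was the least abundant at 4.51, 4.08 and 2.27 TPM, and its replicate 3 stood at 0.525 times (95% interval 0.437 to 0.629) replicate 1, the lowest such ratio of the 54 members. KIF2C, which depolymerises microtubules at centromeres, had 10.8, 10.2 and 6.48 CPM, a ratio of 0.597 times (95% interval 0.496 to 0.718). KIF11 (14.5 ± 2.70 TPM), the motor that pushes spindle poles apart, KIF4A (12.8 ± 2.73 TPM) and KIF18A (3.93 ± 0.834 TPM) had ratios of 0.721, 0.686 and 0.676.

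Spindle and cytokinesis genes held the largest share of the members' counts among the 8 roles. CKAP2, a microtubule-associated protein, stood at 84.1, 78.1 and 71.0 TPM and ECT2, the exchange factor that activates RhoA for cytokinesis, at 62.0, 56.4 and 45.7 TPM. In the order of levels CKAP2 was separate from its neighbours BUB3 above and ECT2 below, and the other 51 of 53 neighbouring pairs overlapped in their ranges over libraries. CKAP2 differed little between replicates 3 and 1, at 0.879 times (95% interval 0.840 to 0.921). ASPM, a spindle pole protein, had the lowest mean of the class. It stood at 13.8, 11.2 and 7.25 TPM but rested on 1492, 1222 and 927 counts. All 9 genes were called and lowest in replicate 3, against 18.7% of all genes.

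ASPM and ANLN were 2 of the 5 members that passed the negative binomial test. ASPM had 55.8, 46.0 and 30.5 CPM, with replicate 3 at 0.546 times (95% interval 0.503 to 0.593) replicate 1 (negative binomial test, adjusted p = 0.00054, edgeR). ANLN, anillin, a scaffold of the contractile ring, had 69.9, 59.5 and 40.4 CPM, with replicate 3 at 0.578 times (95% interval 0.537 to 0.621) replicate 1 (negative binomial test, adjusted p = 0.00098, edgeR). Both were also lower in replicate 2 than in replicate 1, at 0.824 times (95% interval 0.763 to 0.889) and 0.851 times (95% interval 0.795 to 0.910). NUSAP1 (48.9 ± 8.55 TPM), which binds spindle microtubules, TPX2 (41.7 ± 6.83 TPM), which activates Aurora A, and PRC1 (29.4 ± 5.45 TPM), which bundles midzone microtubules, had replicate 3 at 0.743, 0.756 and 0.724 times replicate 1. HMMR (11.9 ± 2.65 TPM) and DLGAP5 (11.4 ± 2.93 TPM), both spindle assembly factors, were at 0.661 and 0.618 times.

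The 4 anaphase genes showed the lowest class median in the comparison of replicates 3 and 1, −0.70 on the log2 CPM scale. PTTG1, securin, which holds separase inactive, stood at 54.3, 48.3 and 33.3 TPM and UBE2C, the ubiquitin-conjugating enzyme of the anaphase-promoting complex, at 47.5, 43.8 and 27.5 TPM. ESPL1, separase itself, was lowest at 8.92, 8.47 and 5.36 TPM. Securin exceeded separase in TPM 6.09, 5.70 and 6.20 times, so that ratio was close to constant while both genes were low in replicate 3. CDC20, the activator of the complex (chromosome 1, 43358955 to 43363202), had 16.8, 17.4 and 9.14 CPM: replicate 3 stood at 0.544 times (95% interval 0.467 to 0.634) replicate 1 and 0.525 times (95% interval 0.451 to 0.610) replicate 2 (negative binomial test, adjusted p = 0.0148, edgeR).

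All 7 chromosome structure genes were called and lowest in replicate 3, against 18.7% of all genes. The amounts differed between subunits of condensin. TOP2A, topoisomerase II alpha, stood highest at 59.8, 57.4 and 40.3 TPM (chromosome 17, 40388521 to 40417950), with replicate 3 at 0.702 times (95% interval 0.667 to 0.739) replicate 1. SMC4, a core condensin ATPase, stood at 46.0, 41.5 and 37.1 TPM. NCAPH, the kleisin of condensin I, was the lowest of all members at 4.03, 3.85 and 2.21 TPM, with replicate 3 at 0.570 times (95% interval 0.464 to 0.700) replicate 1. NCAPG, at 17.9, 15.9 and 10.4 CPM, was at 0.578 times (95% interval 0.50 to 0.668). MKI67, the Ki-67 gene, had 83.3, 75.7 and 53.8 CPM and a ratio of 0.646 times (95% interval 0.606 to 0.689) (negative binomial test, adjusted p = 0.0173, edgeR).

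Condensin I is built of 5 subunits, all members here. The TPM ratio of SMC4 to SMC2 was 1.78, 1.76 and 1.71, with replicate 3 at 0.839 times (95% interval 0.794 to 0.887) replicate 1 for SMC4 and 0.873 times (95% interval 0.814 to 0.936) for SMC2. SMC2 over NCAPH was 6.40, 6.13 and 9.80, and NCAPD2 over NCAPH 4.52, 4.57 and 6.68, both highest in replicate 3. NCAPG over NCAPH was 2.52, 2.31 and 2.56. SMC2 and SMC4 also serve condensin II, whose other subunits are not members. Of NCAPG's exon length 32.9% lies opposite LCORL, and its counts are uncertain if reads were not assigned by strand. The exons of CDC25C, PRC1, HMMR, CCNA2, BUB1B, SMC4, PLK1, KIF20A and ANLN also overlap another entry, over smaller shares.

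**Figure D4:**
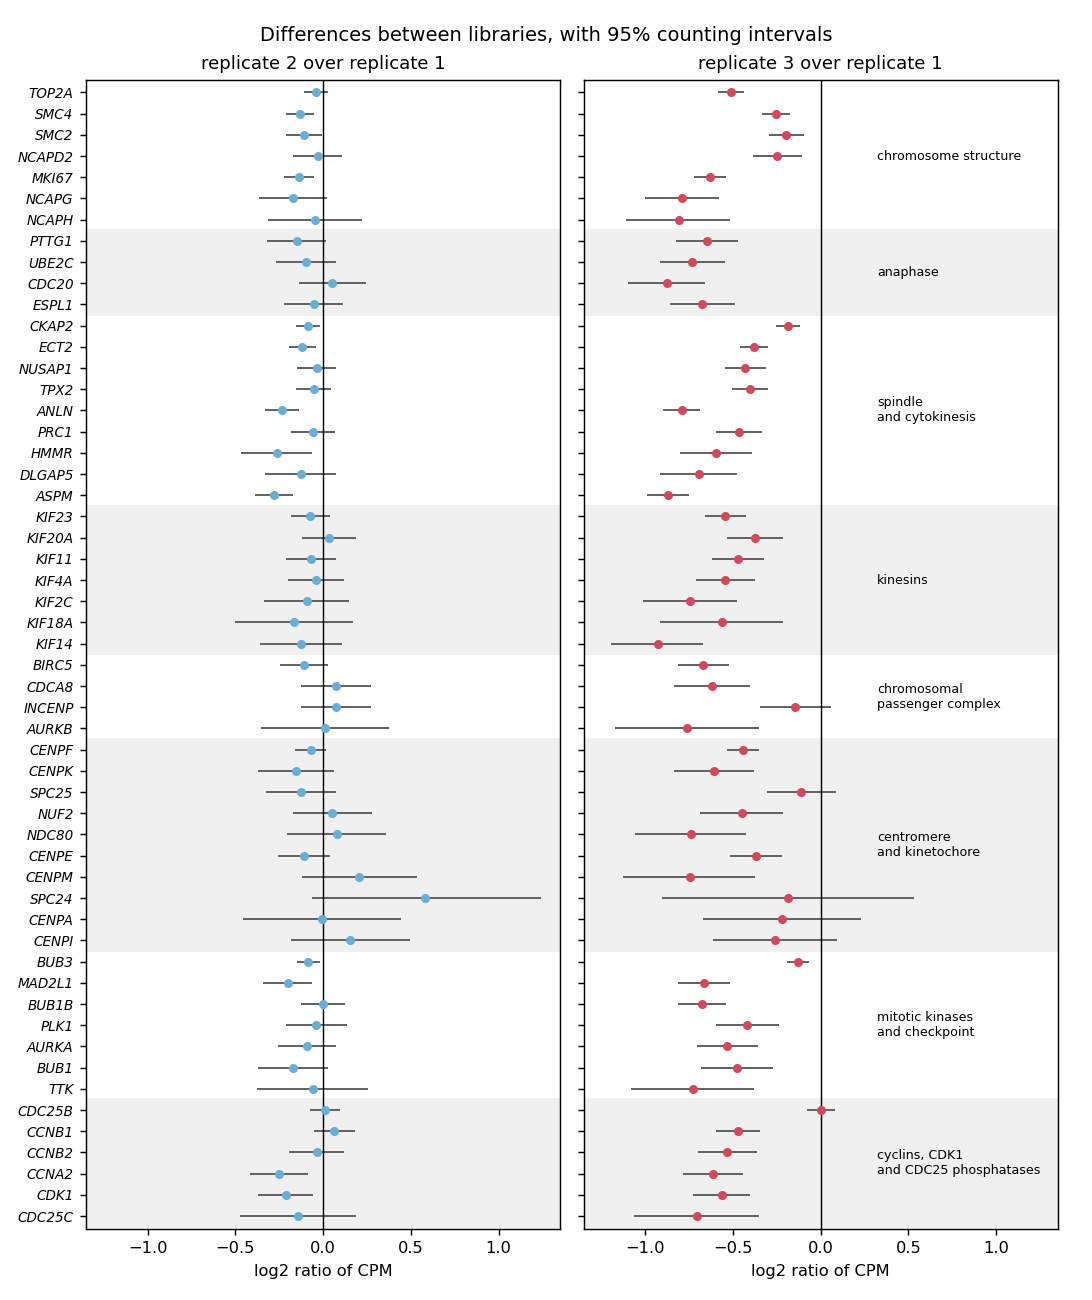
Log2 ratio of CPM for each of the 54 mitotic genes, replicate 2 over 1 on the left and replicate 3 over 1 on the right, with exact 95% counting intervals as lines. On the right 48 intervals lie below 0 and none above it, while on the left 12 lie below 0 and none above it.

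Members that differed least were BUB3, CKAP2, CDC25B, SMC2, SMC4, NCAPD2, SPC25, INCENP and CENPA, the 9 with a coefficient of variation of CPM under 10%. For BUB3, CKAP2, SMC2, SMC4, NCAPD2 and CDC25B the smallest count in any library was 832 (NCAPD2). Across the 54 members the ratio of replicate 3 to replicate 1 was ordered with mean TPM at a Spearman rho of 0.33 and with gene length at 0.05, a description over genes that share the same 3 libraries. For replicates 3 and 2 rho was 0.38 with mean TPM and 0.24 with length. For replicates 2 and 1 it was −0.06 and −0.30. Over all tested genes the median log2 difference of replicates 3 and 1 was 0.04 in the shortest, 0.00 in the middle and −0.03 in the longest of 3 equal classes by length.

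Other genes of mitosis, from a list that holds no member, were low in the same library. Of 56 such genes 52 were lowest in replicate 3 and 44 were called beyond Poisson sampling, against 39.8% and 41.6% of all genes. Their median log2 difference was −0.41 between replicates 3 and 1. CKS1B, a CDK-binding subunit, was the most abundant (235, 228 and 180.0 TPM). FAM64A, now PIMREG, had the largest range (3.70, 3.58 and 1.97 CPM). The negative binomial test called 1 of the 56 genes, CENPU, against 1.31% of all genes. CENPU, a constitutive centromere protein, had 38.6, 35.1 and 21.3 CPM, with replicate 3 at 0.552 times (95% interval 0.499 to 0.609) replicate 1 (negative binomial test, adjusted p = 0.00127, edgeR).

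Genes of the anaphase-promoting complex and of cohesin stood higher and, by median, differed less than the members between replicates 3 and 1. The 17 genes of the anaphase-promoting complex and its partners had a median of 68.6 TPM and a median difference of −0.02 between replicates 3 and 1. In this list 9 were lowest in replicate 3, against 39.8% of all genes, and 9 were called beyond Poisson sampling, against 41.6%. CDC16, a core subunit, stood at 139.5, 138 and 132 TPM. FBXO5, an inhibitor of the complex, had 11.5, 11.4 and 7.86 CPM, with replicate 3 at 0.682 times (95% interval 0.574 to 0.810) replicate 1. The 14 cohesin genes had a median of 36.6 TPM and a median difference of −0.11 between replicates 3 and 1. Of these 11 were lowest in replicate 3 and 8 were called beyond Poisson sampling, against 39.8% and 41.6% of all genes. RAD21, the cohesin kleisin, stood at 193, 193 and 171 TPM, while ESCO2, an acetyltransferase of S phase with the largest range, had 2.69, 2.60 and 1.45 CPM.

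Genes of G1/S and replication showed the same low library as the mitotic genes. Of 24 such genes 23 were lowest in replicate 3 and 21 were called beyond Poisson sampling, against 39.8% and 41.6% of all genes. The negative binomial test called 8, against 1.31%. Their median difference was −0.62 between replicates 3 and 1 over the 24. PCNA, the replication clamp, was the most abundant (112, 102 and 86.3 TPM). ORC1, of the origin recognition complex, had the largest range (2.81, 1.99 and 0.921 CPM).

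Regulators of mitotic transcription were mixed. Of 24 genes 16 were lowest in replicate 3 and 17 were called beyond Poisson sampling, against 39.8% and 41.6% of all genes. Their median difference was −0.22 between replicates 3 and 1. RBL2, the p130 pocket protein of the repressive complex, was the most abundant (183, 169.9 and 152 TPM). E2F7, an atypical E2F repressor, had the largest range (5.61, 4.29 and 2.27 CPM). MYBL2, which codes for B-MYB, had 38.0, 41.5 and 26.2 CPM and FOXM1 had 19.1, 18.7 and 14.3 CPM, both lowest in replicate 3 at 0.691 times (95% interval 0.629 to 0.758) and 0.752 times (95% interval 0.660 to 0.856) replicate 1.

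CDKN1A, the gene of the CDK inhibitor p21, was highest in the library in which the members were lowest. It had 55.8, 64.1 and 127 CPM (1492, 1703 and 3865 counts), so that replicate 3 stood at 2.28 times (95% interval 2.15 to 2.42) replicate 1 and 1.98 times (95% interval 1.87 to 2.10) replicate 2 (negative binomial test, adjusted p = 3.46e-13, edgeR). Among the 24 regulators it had the highest ratio of replicate 3 to replicate 1. Its part in the difference of the mitotic genes was not tested.

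Other lists did not follow the pattern of the members. The 8 early response genes, known to respond within minutes to growth factors, were all lowest in replicate 1, against 32.8% of all genes. Their median difference was 2.09 between replicates 2 and 1 and 0.00 between replicates 3 and 2. EGR1 had 19.4, 466 and 487 CPM. Of the 8 luminal markers 7 were lowest in replicate 1, against 32.8% of all genes, with a median difference of 0.21 between replicates 3 and 1. The part of these lists in the difference of the mitotic genes was not tested.

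**Figure D5:**
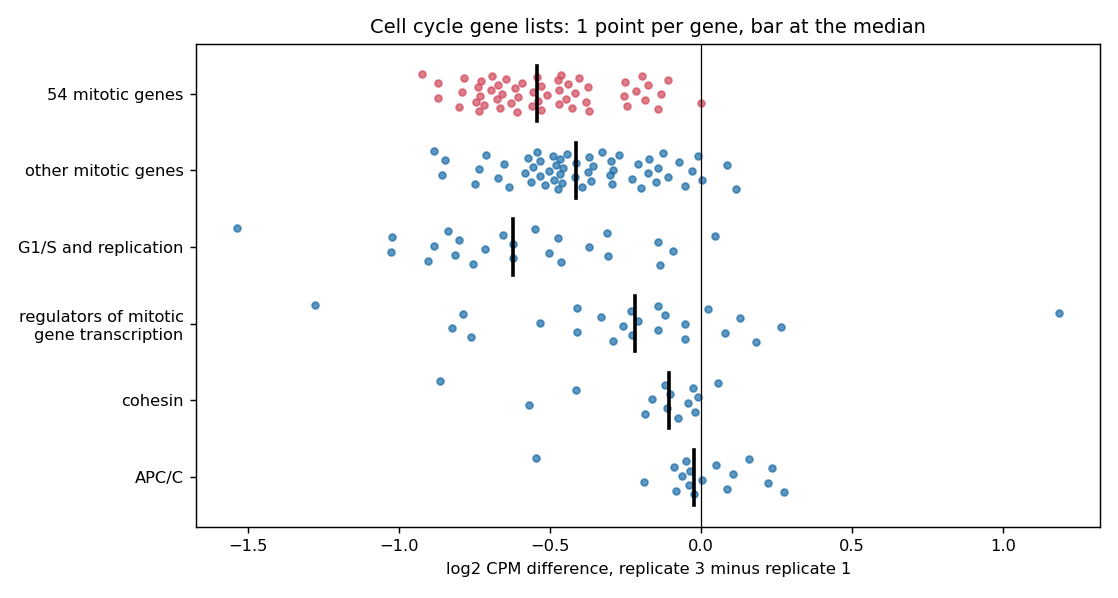
Log2 CPM difference of replicate 3 minus replicate 1, 1 point per gene, for the 54 mitotic genes and 5 other lists, with bars at the medians. The mitotic (median −0.54), other mitotic (−0.41) and G1/S lists (−0.62) lie left of 0, cohesin (−0.11) and APC/C (−0.02) lie close to it, and CDKN1A is the point farthest to the right.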

How the data were processed

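Poly-A RNA was sequenced from 3 CAMA1 libraries. A stranded Illumina mRNA kit was used, per the labels' protocols. The tools named, per the submitters' processing notes, were featureCounts, TopHat and Subread, and the build was hg38. Their versions, the strand setting and the treatment of multiply mapped reads are not given in the sources used here. Values deposited by the authors are expected counts per gene, which need not be whole, with exon positions and a length. Values of 6 members were fractional, and the exons of 10 overlap another entry. Without a strand setting, reads over the shared bases cannot be told apart. For BUB1B, which shares 172 bases with PAK6 on the same strand, a strand setting would not separate them either. TPM was computed from deposited counts and lengths. Counts were rounded and analysed in edgeR 4.0.16 (R 4.3.3) with TMM factors (1.01, 1.0 and 0.990), filterByExpr, and an intercept-only fit. Each gene's deviance was tested against Poisson sampling and, as an alternative, the trended negative binomial dispersion, with Benjamini-Hochberg adjustment over 14453 genes and a threshold of 0.05. Log2 CPM used a prior count of 2. Intervals are exact (Clopper-Pearson, 95%), computed with scipy 1.17.1. Both tests were tested on simulated data. The members and lists were chosen with earlier results of these data known. Printed values follow this rule: per role the 2 highest members and the lowest, the 10 members with the largest and the 3 with the smallest range between libraries; other lists give their highest and most variable genes, and other names were chosen after their values were seen. Older symbols were matched through the gene tables (4 genes).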

Additional observations from a re-analysis of the deposited data

How the results depend on the processing

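The number of members called beyond Poisson sampling was 48 with TMM, with size factors of the RLE kind, with library totals only and with no filter on low counts, and 5 with the trended negative binomial dispersion. Leaving out 1 library in turn gave 6 to 48 calls: 47 without replicate 1, 48 without replicate 2 and 6 without replicate 3. The members' median deviation from the mean of the libraries was 0.20, 0.12 and −0.32 on the log2 scale in replicates 1, 2 and 3. When 1 library was left out it ran from 0.04 to 0.27 in replicate 1, −0.04 to 0.23 in replicate 2, where it changed sign without replicate 3, and −0.27 to −0.23 in replicate 3. Scaling, prior count, the mean in place of the median and a minimum of 100 counts moved it by less than its spread between libraries, as did leaving out the 10 members that overlap another entry (chosen after seeing the data). With library totals only 53 members were lowest in replicate 3, since CDC25B, level in all libraries, joined them. The members' median level was 17.5 TPM, 20.2 as CPM, and 16.2 to 19.0 TPM with 1 library left out. Without BUB3 the members held 0.184, 0.172 and 0.132% of counts, and their summed TPM was 1489, 1395 and 1055. All 54 were detected at minimums of 1, 10 and 20 counts. Over every RefSeq window of a gene 35 members had a CHR and 36 a CCAAT match (chosen after seeing the data). Of 279 pairwise values of the 31 members named by rule under other scalings or a prior count of 0.5, none changed sign where its interval excluded equality. No paired analysis was possible because there is 1 group. Depth gives wide intervals for SPC24 and CENPA.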
